A study of Homo sapiens with 6 samples.

Results

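The genes described here are those of the integrated stress response that runs through the transcription factor ATF4. They are 46 of the 58735 genes in the deposited table, chosen by symbol from a list of ATF4, its target genes, and the amino acid transport, amino acid synthesis and transfer RNA genes of the same response. All 46 were found, each by 1 Ensembl identifier, and 46 of 46 passed the filter on low values (a mean of at least 1 FPKM over the 3 libraries of at least 1 line). By role they were 9 transcription factors and feedback genes, 6 stress outputs, 6 enzymes of serine, glycine and folate metabolism, 6 enzymes that make other amino acids, 7 amino acid transporter genes, and 12 genes of transfer RNA, of which 11 encode cytosolic synthetases and 1 an exporter of transfer RNA.

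In the integrated stress response, kinases that sense unfolded protein, amino acid shortage, double-stranded RNA or heme shortage phosphorylate the translation factor eIF2. Most translation then slows, while the messenger RNA of ATF4 is translated more, so that ATF4 is controlled largely at the level of its protein and its own message need not move with its targets. ATF4 pairs with C/EBP family proteins at C/EBP-ATF response elements and raises genes that import and make amino acids and charge transfer RNA, and, in longer stress, genes such as DDIT3, TRIB3 and CHAC1 that limit growth or lead to cell death. In prostate cancer cells ATF4 is known as a factor that supports growth.

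Messenger RNA was sequenced in 6 libraries from 2 established human prostate cancer lines. C4-2B MDVR was made from C4-2B cells and resists enzalutamide, a prostate cancer drug, and H660 is a line of neuroendocrine prostate cancer. In each line 1 library came from cells given a control siRNA, 1 from cells given PLXND1 siRNA 1 and 1 from cells given PLXND1 siRNA 2, so that all 6 libraries come from siRNA-treated cells and no untransfected library was among them. PLXND1 encodes Plexin D1, a receptor for semaphorins, and the series asks about its part in neural lineage plasticity. The labels give no time after transfection and name no separate cultures, so p-values measure only the spread between these libraries, which may in part be technical. In the fits of knockdown and of line that spread also holds the difference between the 2 siRNAs, since the knockdown libraries of a line had different siRNAs.

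The libraries held 17655802 to 24105369 fragments assigned to genes. PLXND1 was at 7.40 FPKM in the C4-2B MDVR control, 1.57 with siRNA 1 and 3.10 with siRNA 2, and at 9.13, 7.62 and 7.54 FPKM in H660, where its level was thus little below the control. FOLH1, a surface enzyme of luminal prostate cells, was at 203, 304 and 127 FPKM in the C4-2B MDVR control, siRNA 1 and siRNA 2 libraries and at 0.053 in the H660 control. The keratins KRT8 and KRT18, also luminal markers, were higher in H660 (236 and 155 FPKM in its control against 77.4 and 89.8), while CHGA, a granule protein of neuroendocrine cells, was at 0.078 and 47.3 FPKM. The 4 immune and 5 fibroblast marker genes summed to at most 2.33 and 5.39 FPKM in any library, and the 3 endothelial ones to 8.26 to 10.6 FPKM in H660, nearly all of it CDH5, and at most 0.943 in C4-2B MDVR. The C4-2B MDVR control stood apart in its mitochondrial share, 3.38% of fragments against 6.83% to 9.64% in the other 5 libraries. Its part in the C4-2B MDVR results was not tested.

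The sequences below are shown because their genes had the largest knockdown effects of the 46, or because they hold the element ATF4 is known to bind. They are RefSeq promoter windows on GRCh38.p14, 5′ to 3′ on the strand of the gene, and 38 of the 46 genes had a window. Each of the first 6 is the stretch of 250 bases before an annotated start of 1 of the 6 genes with the largest values over both lines. Where a gene has several starts, the first one in genome order is shown. Capitals mark matches to TGATGNAA, the core of the C/EBP-ATF response element, on either strand.
DDIT3, chr12:57520515-57520764, minus strand: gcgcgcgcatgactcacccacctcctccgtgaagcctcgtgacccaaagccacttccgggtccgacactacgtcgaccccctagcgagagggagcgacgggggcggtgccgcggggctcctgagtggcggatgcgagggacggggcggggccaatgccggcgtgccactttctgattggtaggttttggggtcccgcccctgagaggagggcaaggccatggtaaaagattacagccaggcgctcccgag
CHAC1, chr15:40953221-40953470, plus strand: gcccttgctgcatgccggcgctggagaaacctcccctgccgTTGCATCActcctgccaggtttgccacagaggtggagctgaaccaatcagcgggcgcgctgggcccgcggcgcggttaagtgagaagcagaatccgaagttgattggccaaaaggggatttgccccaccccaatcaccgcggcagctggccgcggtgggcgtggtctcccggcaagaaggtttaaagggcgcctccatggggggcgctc
ATF3, chr1:212565157-212565406, plus strand: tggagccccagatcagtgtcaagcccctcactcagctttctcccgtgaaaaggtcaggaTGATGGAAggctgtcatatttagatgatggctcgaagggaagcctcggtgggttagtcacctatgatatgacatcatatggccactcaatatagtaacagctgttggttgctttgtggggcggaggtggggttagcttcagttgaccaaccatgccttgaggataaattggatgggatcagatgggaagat
GDF15, chr19:18385908-18386157, plus strand: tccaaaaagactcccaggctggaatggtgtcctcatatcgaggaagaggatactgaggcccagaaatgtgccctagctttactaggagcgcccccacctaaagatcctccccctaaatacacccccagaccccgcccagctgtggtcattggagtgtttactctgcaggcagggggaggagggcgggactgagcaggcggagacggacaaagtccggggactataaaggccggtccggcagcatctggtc
SESN2, chr1:28259268-28259517, plus strand: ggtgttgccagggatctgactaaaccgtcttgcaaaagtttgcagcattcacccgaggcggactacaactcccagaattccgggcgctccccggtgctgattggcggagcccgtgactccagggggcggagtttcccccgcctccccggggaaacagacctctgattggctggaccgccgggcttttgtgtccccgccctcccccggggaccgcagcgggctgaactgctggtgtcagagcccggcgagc
TRIB3, chr20:381045-381294, plus strand: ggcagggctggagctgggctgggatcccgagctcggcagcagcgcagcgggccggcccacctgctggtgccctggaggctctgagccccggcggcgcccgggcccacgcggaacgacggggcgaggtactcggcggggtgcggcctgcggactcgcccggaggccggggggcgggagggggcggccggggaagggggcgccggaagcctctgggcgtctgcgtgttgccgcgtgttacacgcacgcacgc

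The core was searched as TGATGNAA on both strands, and the cyclic AMP response element, to which ATF family proteins also bind, as TGACGTCA. The 250 bases before a start held TGATGNAA in 9 of the 38 genes (23.7%), against 3.89% of 27305 genes with a window. The 9 were ATF3, CEBPG, JDP2, CHAC1, ASNS, SLC1A5, AARS, GARS and IARS. TGACGTCA was in 1 of the 38 (2.63%), PPP1R15A, against 2.03% of all genes. The matches of the 2 patterns do not overlap in these windows. With the 50 bases after the start included, TGATGNAA was in 16 of 38 genes (42.1%) against 4.46%. The genes added were SLC7A1, SLC3A2, SLC1A4, NARS, MARS, CARS and TARS. A match is a description of the letters in these windows, and the gene list was itself built from known ATF4 targets. Below, 6 of the matches are shown on the strand that reads TGATGNAA, in up to 30 bases, to set the element of genes that were high after knockdown (ATF3, CHAC1) beside that of genes with intermediate values (ASNS, AARS, CEBPG) and of IARS, which lay below the control in C4-2B MDVR and above it in H660.
ATF3: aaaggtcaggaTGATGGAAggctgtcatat
CHAC1: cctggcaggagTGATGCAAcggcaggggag
ASNS: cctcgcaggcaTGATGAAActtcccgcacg
AARS: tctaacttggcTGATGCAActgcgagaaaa
CEBPG: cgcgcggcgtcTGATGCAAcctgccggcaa
IARS: ggaggTGATGCAAcgcgctgaaaa
These matches began 13 to 209 bases before the start.

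In the test across all genes, 0 of the 46 genes passed for PLXND1 knockdown in C4-2B MDVR, in H660 or in both lines together, and 0 of 15638 genes passed in any of these comparisons (limma on log2 of FPKM + 1, two-sided, Benjamini-Hochberg adjusted p under 0.05, background 0.0%). At an unadjusted p under 0.05, 11 of the 46 genes were higher over both lines and 0 lower, of 654 genes in all, 400 of them higher. Within C4-2B MDVR the same count was 6 members of 921 genes, and within H660 2 of 647, all of these members higher. The voom test on recovered fragments called 9 genes in C4-2B MDVR and 0 in H660 and in both lines, none of them a member. Over both lines 44 of the 46 genes had a fitted log2 change above 0, with a median of 0.35, where the median of all genes tested was 0.01. Within the lines 37 were above 0 in C4-2B MDVR and 44 in H660. The share of all genes above 0 in these fits is not given here. In the single knockdown libraries 25 to 44 of the 46 genes were above the control, against 44.5% to 51.9% of all genes tested. The values below are therefore given as levels, with the tests where they turn on them, and say which libraries were high and which were low. In these bulk libraries a change in every cell and a change in a share of the cells cannot be told apart.

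**Figure D1:**
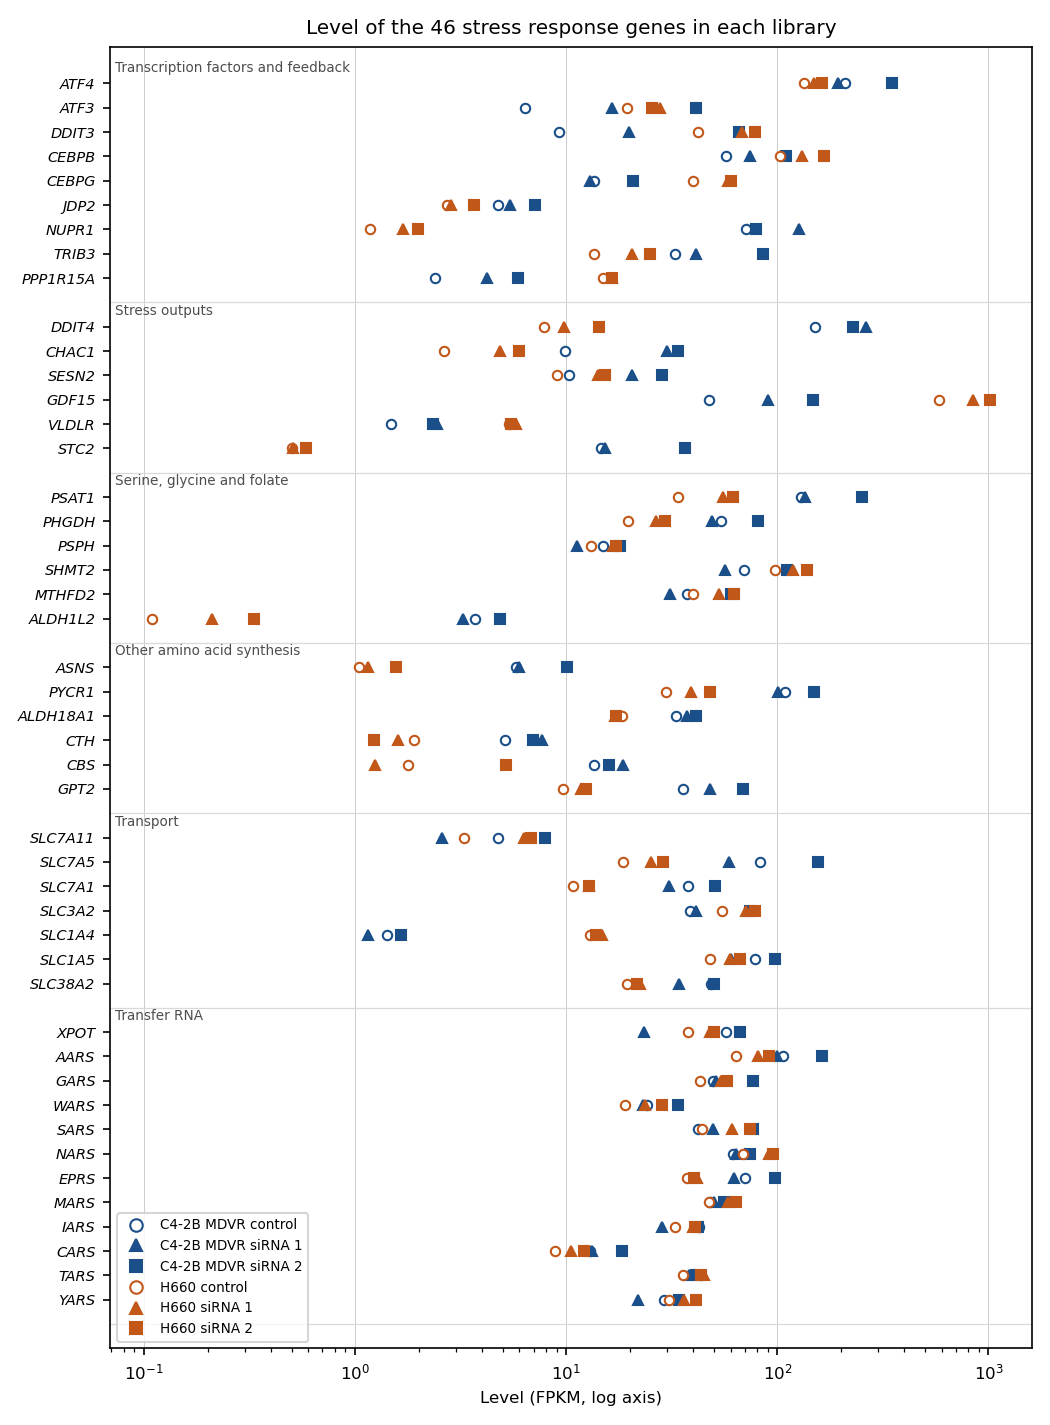
Level of each of the 46 genes (FPKM, log axis) in the 6 libraries, grouped by role, with controls as open circles, siRNA 1 as triangles and siRNA 2 as squares. In H660 the open circle lies left of both filled symbols for 43 of 46 genes, while in C4-2B MDVR the triangle lies left of the circle for 21.

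ATF4 (ENSG00000128272, chr22:39519695-39522685 in GENCODE 29 on GRCh38) was at 209.7 FPKM in the C4-2B MDVR control, 194 with siRNA 1 and 349.5 with siRNA 2. In H660 it was at 133 FPKM in the control, 149.7 with siRNA 1 and 163 with siRNA 2. Its message was therefore highest in the C4-2B MDVR siRNA 2 library, 1.67 times the control (95% counting interval 1.63 to 1.71), and slightly lower than the control with siRNA 1 (0.925 times, 0.901 to 0.951). These intervals are exact binomial ones on the fragments and cover counting error only. Over both lines the log2 change was 0.27 ± 0.24 (SE, limma, adjusted p = 0.985).

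Among the other transcription factors, DDIT3 (ENSG00000175197, chr12:57516588-57521737), which encodes CHOP, a factor that acts late in the response, had the largest value over both lines. It was at 9.23 FPKM in the C4-2B MDVR control, 19.8 with siRNA 1 and 66.0 with siRNA 2. In H660 it was at 41.9 FPKM in the control, 68.3 with siRNA 1 and 78.0 with siRNA 2. All 4 knockdown libraries were above the control of their line, by 1.63 to 7.16 times, and the fitted log2 change was 1.33 ± 0.49 (SE, limma, unadjusted p = 0.034, adjusted p = 0.985). DDIT3 shares 355 of its 1307 exon bases (27.2%) with MARS on the opposite strand, and whether counting used strand is not given in the sources used here, so its level is uncertain to that extent. MARS itself ranged from 47.4 to 63.8 FPKM over the 6 libraries.

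ATF3 (ENSG00000162772, chr1:212565334-212620777), a repressor and activator induced by many stresses, was at 6.38 FPKM in the C4-2B MDVR control, 16.5 with siRNA 1 and 41.2 with siRNA 2. In H660 it was at 19.4, 27.7 and 25.5 FPKM. It was above the control in all 4, but in C4-2B MDVR siRNA 2 stood well over siRNA 1 while in H660 siRNA 1 was the higher of the pair. TRIB3 (ENSG00000101255, chr20:362835-397559), a pseudokinase that feeds back on ATF4, was at 32.8, 41.4 and 85.2 FPKM in C4-2B MDVR and at 13.6, 20.6 and 25.01 in H660. Its order was the same in both lines, control below siRNA 1 below siRNA 2.

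PPP1R15A, which encodes GADD34, the phosphatase subunit that reverses eIF2 phosphorylation, was at 2.39, 4.19 and 5.91 FPKM in C4-2B MDVR and at 14.8, 16.4 and 16.4 in H660. Both knockdown libraries of H660 were only 1.11 times the control. NUPR1, a small chromatin-binding stress protein, was at 70.8 FPKM in the C4-2B MDVR control, 126 with siRNA 1 and 78.8 with siRNA 2, and at 1.18, 1.69 and 1.98 in H660. It was the 1 member at least 1.5-fold lower with siRNA 2 than with siRNA 1 in C4-2B MDVR (0.625 times, 0.607 to 0.642, background 8.03%). CEBPG, a dimer partner of ATF4, was at 13.5, 12.9 and 20.7 FPKM in C4-2B MDVR and at 39.8, 58.3 and 60.2 in H660, so the siRNA 1 library was below the control only in C4-2B MDVR. CEBPB and JDP2, further basic leucine zipper factors, were above the control in all 4 knockdown libraries, by log2 differences of 0.04 to 0.94. Together the 9 factors and feedback genes had median log2 differences of 0.38 with siRNA 1 and 0.94 with siRNA 2 in C4-2B MDVR, and 0.35 and 0.45 in H660.

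CHAC1 (ENSG00000128965, chr15:40952962-40956519), an enzyme that breaks down glutathione, was at 9.87 FPKM in the C4-2B MDVR control, 29.9 with siRNA 1 and 34.0 with siRNA 2. In H660 it was at 2.63, 4.88 and 5.96 FPKM. Its log2 change over both lines was 1.21 ± 0.20 (SE, limma, unadjusted p = 0.00094, adjusted p = 0.985). In C4-2B MDVR alone its limma adjusted p was 0.411, the lowest of the members there. The siRNAs gave close values in each line, 3.03 and 3.44 times the control in C4-2B MDVR and 1.86 and 2.27 times in H660.

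SESN2 (ENSG00000130766, chr1:28259527-28282491), a leucine sensor that restrains mTORC1, was at 10.3, 20.4 and 28.4 FPKM in C4-2B MDVR and at 9.07, 14.2 and 15.2 in H660. GDF15 (ENSG00000130513, chr19:18374731-18389176), a secreted stress cytokine, was at 47.3, 90.4 and 148 FPKM in C4-2B MDVR and at 583.6, 843 and 1018 in H660. Both lie above the control in all 4 knockdown libraries, with log2 changes over both lines of 0.90 ± 0.18 and 0.97 ± 0.25 (SE, limma, adjusted p = 0.985 for each). SESN2, GDF15 and ATF3 are also known targets of p53. CDKN1A, a further p53 target, was at 47.5 FPKM in the C4-2B MDVR control and 422 and 346 in its knockdown libraries, but at 92.6, 96.3 and 94.5 in H660. The part of p53 in the values of either line was not tested.

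DDIT4, an mTORC1 inhibitor also known as REDD1, was at 151 FPKM in the C4-2B MDVR control, 263 with siRNA 1 and 227 with siRNA 2, and at 7.85, 9.78 and 14.3 in H660. Its siRNA order was thus opposite in the lines. DDIT4 shares 847 of its 2058 exon bases (41.2%) with DDIT4-AS1 on the opposite strand, so its level is uncertain to that extent. DDIT4-AS1 was at 0 FPKM in the control of each line. STC2, a secreted glycoprotein, was at 14.6, 15.2 and 36.4 FPKM in C4-2B MDVR and at 0.501, 0.507 and 0.583 in H660, where it was under 1 FPKM in every library and rests on 73 to 92 fragments. VLDLR, a lipoprotein receptor, was at 1.48, 2.45 and 2.33 FPKM in C4-2B MDVR and at 5.33, 5.76 and 5.46 in H660. The 6 stress outputs had the highest median of the role groups in each of the 4 knockdown libraries, at 0.86 and 1.33 in C4-2B MDVR and 0.41 and 0.74 in H660.

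**Figure D2:**
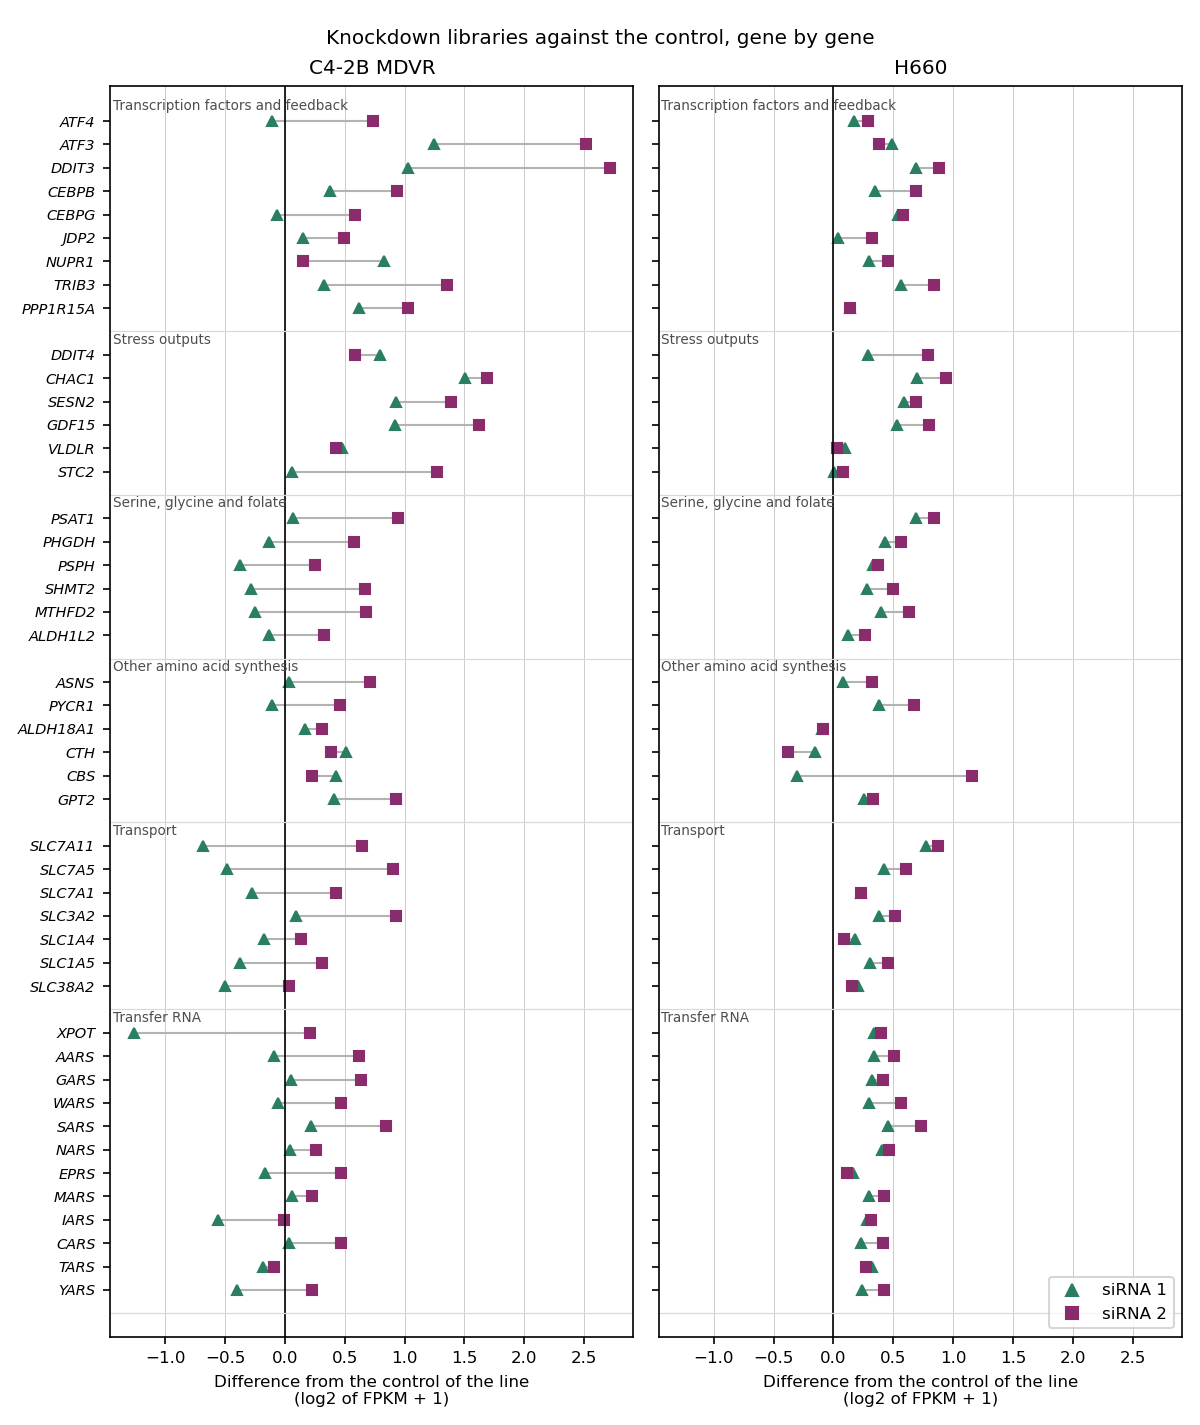
Difference of each knockdown library from the control of its line (log2 of FPKM + 1) for the 46 genes by role, siRNA 1 as triangles and siRNA 2 as squares, with a line joining the pair. In C4-2B MDVR the triangles of the serine, transport and transfer RNA genes lie mostly left of 0 and the squares right of it, and in H660 both lie right of 0 for 43 genes.

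The enzyme genes of serine, glycine and folate metabolism split by siRNA in C4-2B MDVR. PSAT1, the second enzyme of serine synthesis, was at 129 FPKM in the control, 136 with siRNA 1 and 250.5 with siRNA 2. In H660 PSAT1 was at 33.9, 55.2 and 61.4 FPKM. PHGDH, the first enzyme, was at 54.2, 49.2 and 81.2 FPKM in C4-2B MDVR and at 19.6, 26.7 and 29.5 in H660. MTHFD2, a mitochondrial folate enzyme, was at 37.2, 31.1 and 60.1 FPKM in C4-2B MDVR and at 39.8, 52.7 and 62.1 in H660. PHGDH and MTHFD2 therefore lie below the C4-2B MDVR control with siRNA 1 and above it with siRNA 2, while in H660 both siRNA libraries are above. SHMT2 and PSPH had these orders too. MTHFD2 shares 1324 of its 4870 exon bases (27.2%) with SLC4A5 on the opposite strand, so its level is uncertain to that extent. SLC4A5 was at 0.048 FPKM in the C4-2B MDVR control and 0.624 in the H660 control. ALDH1L2, a mitochondrial formyl-folate enzyme, was at 3.68, 3.26 and 4.86 FPKM in C4-2B MDVR and at 0.109, 0.210 and 0.333 in H660, on 23, 42 and 73 fragments there. The group medians were −0.19 with siRNA 1 and 0.62 with siRNA 2 in C4-2B MDVR and 0.37 and 0.53 in H660.

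Of the enzymes of other amino acids, ASNS, asparagine synthetase, was at 5.79, 5.97 and 10.1 FPKM in C4-2B MDVR and at 1.04, 1.16 and 1.56 in H660. ASNS shares 1985 of its 4455 exon bases (44.6%) with AC079781.5 on the same strand, so its level is uncertain to that extent. AC079781.5 was at 0.011 FPKM in the C4-2B MDVR control and 0.414 in the H660 control. GPT2, a mitochondrial alanine transaminase, was at 35.7, 47.7 and 68.8 FPKM in C4-2B MDVR and at 9.64, 11.7 and 12.3 in H660, above the control in all 4. PYCR1, the last enzyme of proline synthesis, was at 108, 101 and 149.8 FPKM in C4-2B MDVR and at 29.6, 39.0 and 47.9 in H660. CTH, the last enzyme of cysteine synthesis from methionine, went the other way in H660, at 1.89, 1.60 and 1.22 FPKM, after 5.11, 7.71 and 6.99 in C4-2B MDVR. ALDH18A1, the first enzyme of proline synthesis, also lay above the control in C4-2B MDVR (33.2, 37.4 and 41.3 FPKM) and below it in H660 (18.4, 17.1 and 17.2). CBS, cystathionine beta-synthase, was at 13.5, 18.5 and 15.9 FPKM in C4-2B MDVR and at 1.78, 1.25 and 5.21 in H660. CBS has a near-identical copy, CBSL, which was at 1.91, 2.69 and 0.262 FPKM in the same H660 libraries, so the split of reads between the copies and the CBS value in H660 are uncertain.

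Of the transporter genes, SLC7A11, the cystine importer, was at 4.73 FPKM in the C4-2B MDVR control, 2.57 with siRNA 1 and 7.93 with siRNA 2. In H660 it was at 3.26, 6.29 and 6.79 FPKM. The siRNA 1 library was thus at 0.544 times the control in C4-2B MDVR (0.487 to 0.607) and at 1.93 times in H660 (1.77 to 2.11). SLC7A5, the large neutral amino acid exchanger, was at 82.7, 58.8 and 155 FPKM in C4-2B MDVR and at 18.5, 25.1 and 28.7 in H660. SLC3A2, the heavy chain that pairs with SLC7A5 and SLC7A11, was at 38.6, 41.2 and 74.4 FPKM in C4-2B MDVR and at 54.4, 71.3 and 78.2 in H660. It is the 1 transporter gene above the control in all 4 knockdown libraries. SLC38A2, a sodium-coupled transporter of small neutral amino acids, was at 48.7, 34.0 and 49.9 FPKM in C4-2B MDVR and at 19.3, 22.4 and 21.6 in H660. SLC1A4, a transporter of serine and alanine, was at 1.42, 1.14 and 1.65 FPKM in C4-2B MDVR and at 12.9, 14.7 and 13.8 in H660. SLC7A1, which carries cationic amino acids, was at 37.6, 30.8 and 50.8 FPKM in C4-2B MDVR and at 10.8, 12.8 and 12.9 in H660. SLC7A1 and SLC1A5, a glutamine carrier, were also below the C4-2B MDVR control with siRNA 1 and above it with siRNA 2. Group medians were −0.38 and 0.43 in C4-2B MDVR and 0.31 and 0.45 in H660.

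Of the 12 transfer RNA genes, SARS, the seryl synthetase, had the largest value over both lines (log2 change 0.56 ± 0.20, SE, limma, adjusted p = 0.985). It was at 42.3, 49.3 and 76.8 FPKM in C4-2B MDVR and at 44.2, 60.9 and 73.8 in H660. AARS, the alanyl synthetase, was at 106, 99.4 and 163 FPKM in C4-2B MDVR and at 63.7, 80.9 and 90.8 in H660. GARS, the glycyl synthetase, was at 49.3, 51.1 and 77.0 FPKM in C4-2B MDVR and at 43.0, 53.9 and 57.5 in H660. NARS, the asparaginyl synthetase, was at 61.8, 63.7 and 74.1 FPKM in C4-2B MDVR and at 68.9, 91.7 and 95.2 in H660. These synthetases were above the control in all 4 knockdown libraries, except AARS with siRNA 1 in C4-2B MDVR. In that library GARS and NARS were close to the control, on 4269 and 5248 fragments against 4243 and 5238. XPOT, which exports transfer RNA from the nucleus, had the lowest level of any member relative to its control. It was at 57.1 FPKM in the C4-2B MDVR control, 23.3 with siRNA 1 (0.407 times, 0.391 to 0.424) and 66.2 with siRNA 2. In H660 XPOT was at 37.6, 47.9 and 49.8 FPKM. IARS and TARS, the isoleucyl and threonyl synthetases, were the only members below the control with both siRNAs in C4-2B MDVR. IARS was at 42.3, 28.4 and 42.2 FPKM there and TARS at 43.6, 38.3 and 41.0, and the siRNA 2 value of IARS (0.997 times, 0.961 to 1.03) does not differ from the control beyond counting error. In H660 all 12 genes were above the control with both siRNAs, by log2 differences of 0.12 to 0.73.

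Counted over the 46 genes, the C4-2B MDVR libraries differed by siRNA. With siRNA 1, 25 of 46 were above the control, against 51.1% of all genes tested, and the median log2 difference was 0.04 (0.01 over all genes). With siRNA 2, 44 of 46 were above the control, against 51.9%, and the median was 0.58 (0.01 over all genes). In this and the next paragraphs a fold in a count is one of FPKM + 1, which is smaller than the ratio of FPKM in low genes. At least 1.5-fold above the control were 8 genes with siRNA 1 (background 7.42%) and 22 with siRNA 2 (background 5.53%). At least 1.5-fold below were SLC7A11 and XPOT with siRNA 1 (background 5.13%) and 0 genes with siRNA 2 (background 4.66%). Both siRNAs were above the control in 25 genes, against 32.0% of all genes, and below it in 2, against 25.8%. The siRNAs lay on opposite sides of the control in the other 19 genes, against 37.9% of all genes in either order. Each of the 19 had siRNA 1 below and siRNA 2 above, and the smaller share of all genes in that order alone is not given here. Both siRNAs were at least 1.5-fold above in 7 genes, ATF3, DDIT3, PPP1R15A, DDIT4, CHAC1, SESN2 and GDF15, against 2.08% of all genes, to which the ratio of plain FPKM adds VLDLR (5.29% of all genes), and 0 genes were that far below with both (background 1.32%). The 7 are factors, feedback genes and stress outputs, and none is an enzyme, transporter or synthetase gene of amino acid supply. Rescaled to nuclear protein-coding genes, the siRNA 1 median was −0.03 with 18 genes above the control (46.2% of all genes), and with quantile normalization −0.05 with 17 (46.8% of all genes), so the sign of that median turns with the scaling, while the siRNA 2 median stayed at 0.46 and 0.43.

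In H660, 43 of 46 genes were above the control with siRNA 1 (background 44.5%) and 44 with siRNA 2 (background 47.1%). The medians were 0.30 and 0.44, against −0.02 and −0.002 over all genes. Both siRNAs were above the control in 43 of 46, against 32.1% of all genes, and the 3 others were ALDH18A1, CTH and CBS. For CBS the siRNAs lay on opposite sides of the control (background 26.5%). Its copy CBSL had the reverse order in these libraries, at 1.91, 2.69 and 0.262 FPKM, so the CBS signs are uncertain. Below the control with both were ALDH18A1 and CTH (background 38.3%). None was at least 1.5-fold below it with siRNA 1 (background 2.72%), siRNA 2 (2.21%) or both (0.895%), while by plain FPKM CTH was, with siRNA 2 (0.646 times, 0.477 to 0.872, 6.31% of all genes). Both medians of the 46 genes were below that of siRNA 2 in C4-2B MDVR (0.58). With siRNA 2 the transporter and transfer RNA medians went the other way (0.45 and 0.42 in H660 against 0.43 and 0.36). At least 1.5-fold above the control with both siRNAs were 5 genes, DDIT3, CHAC1, SESN2, PSAT1 and SLC7A11, against 1.69% of all genes. None reached 2-fold with both (background 0.377%). The ratio of plain FPKM adds TRIB3 and ALDH1L2 to the 5 (4.02% of all genes). With siRNA 1 alone it was the same 5 genes (background 3.81%), and with siRNA 2 alone 14 genes (background 3.42%). The 2 knockdown libraries of each line share 1 control. PLXND1 in the same libraries was at 0.835 and 0.826 times its control. In the 4 knockdown libraries together, 22 of 46 genes were above the control of their line in each, by any amount, against 10.7% of all genes. That count was 14 with quantile normalization (9.11% of all genes) and 14 when rescaled to nuclear protein-coding genes (7.63%).

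**Figure D3:**
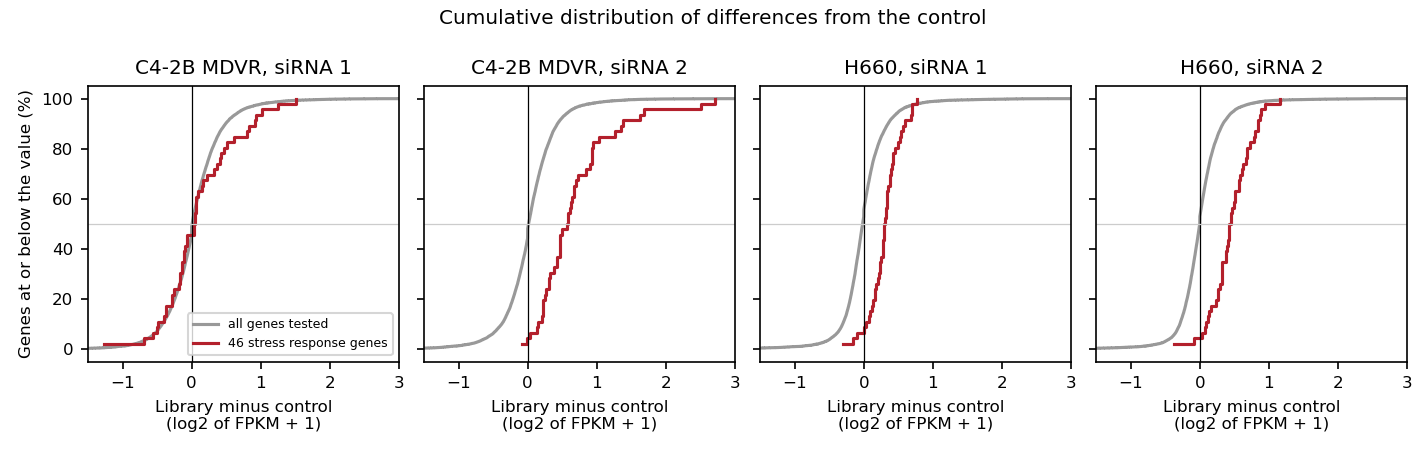
Share of genes (%) at or below each difference from the control (log2 of FPKM + 1), for the 46 genes and for all 15638 genes tested, in each knockdown library. In the C4-2B MDVR siRNA 1 panel the curves meet near 0 and part above it, and in the other 3 the curve of the 46 genes lies to the right, with medians of 0.58, 0.30 and 0.44.

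The differences of siRNA 2 from siRNA 1 within a line use no control library. The fit over both lines takes its spread from all 6 libraries, controls included. In C4-2B MDVR, 41 of 46 genes were higher with siRNA 2 than with siRNA 1 (background 48.0%), with a median log2 difference of 0.60, and 23 were at least 1.5-fold higher (background 7.72%). Among them DDIT3 was 3.33 times (3.01 to 3.69), SLC7A11 3.09 times (2.78 to 3.43) and XPOT 2.85 times (2.74 to 2.96) its siRNA 1 level. In H660, 39 of 46 were higher with siRNA 2 (background 47.6%), with a median of 0.13. At least 1.5-fold higher was 1 gene, CBS (background 2.94%), to which plain FPKM adds ALDH1L2 (7.2% of all genes). At least 1.5-fold lower were 0 genes (background 2.34%). The CBS value is uncertain, since its copy CBSL was at 2.69 FPKM with siRNA 1 and 0.262 with siRNA 2. In each of the lines 36 of 46 genes were higher with siRNA 2, against 22.2% of all genes, and VLDLR and CTH were lower in each (background 23.3%). In the fit over both lines 0 of 46 genes and 0 of 15638 passed (limma, lowest adjusted p of the members 0.963). At an unadjusted p under 0.05 there were 8 members, all higher with siRNA 2, and 531 genes in all. In C4-2B MDVR PLXND1 was itself higher with siRNA 2 (3.10 FPKM) than with siRNA 1 (1.57 FPKM).

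**Figure D4:**
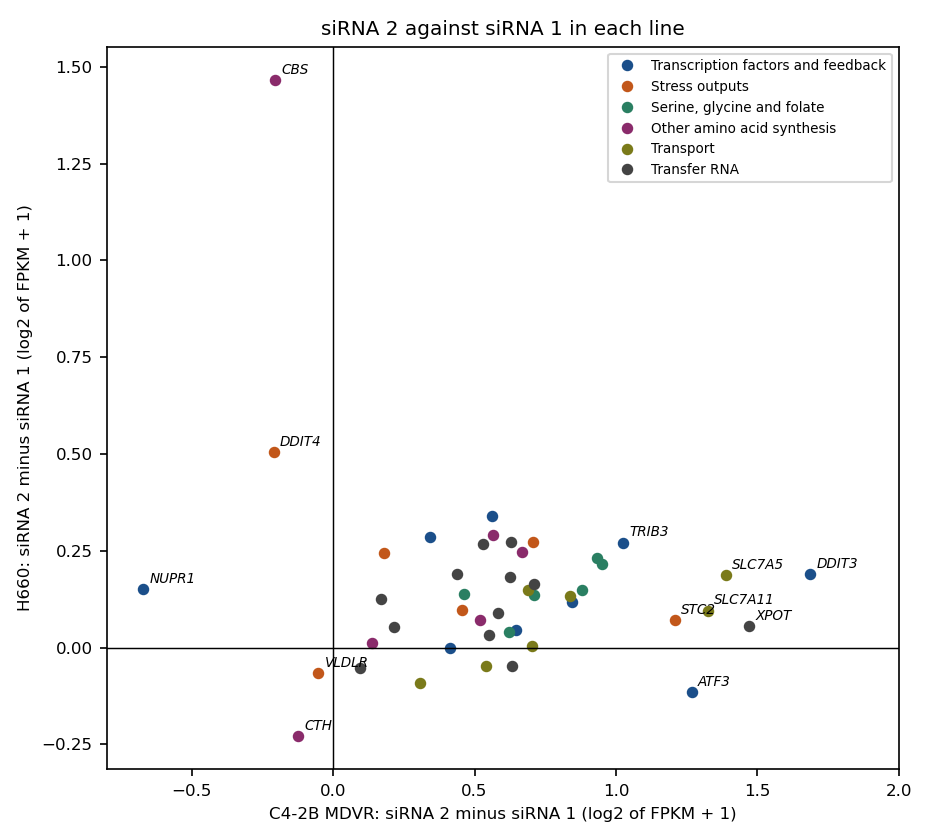
Log2 difference of siRNA 2 from siRNA 1 (log2 of FPKM + 1) for the 46 genes, C4-2B MDVR on the horizontal axis and H660 on the vertical axis, coloured by role. In C4-2B MDVR 41 genes lie right of 0, up to 1.69 for DDIT3, and in H660 all but CBS and DDIT4 lie within 0.35 of 0.

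The difference of the knockdown effect between the lines did not pass for any of the 46 genes or of the 15638 (limma, lowest adjusted p of the members 0.985). At an unadjusted p under 0.05 there were 701 genes in all and 2 members, CHAC1 (−0.78 ± 0.27, SE, H660 minus C4-2B MDVR) and CTH (−0.71 ± 0.25). By role, all 6 stress outputs had a lower fitted effect in H660 (median difference −0.56), where 53.9% of all genes did, and also without either C4-2B MDVR knockdown library. All 6 genes of serine, glycine and folate metabolism (0.27) and 11 of 12 transfer RNA genes (0.22) had a higher one, against 46.1% of all genes. Without the C4-2B MDVR siRNA 1 library these counts were 1 of 6 and 6 of 12, against 46.3% of all genes. Without the C4-2B MDVR siRNA 1 library the median difference of the 46 genes went from 0.08 to −0.19, and without the siRNA 2 library to 0.34.

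The standing levels differed between the lines. Of the 46 genes, 6 were higher in H660, against 20.1% of all genes tested, and 17 were lower, against 17.9% (limma with treatment as a term, adjusted p under 0.05 and at least 2-fold). The 6 were GDF15 (log2 difference 3.19 ± 0.24, SE), SLC1A4 (2.63 ± 0.13), PPP1R15A (1.77 ± 0.19), CEBPG (1.69 ± 0.19), DDIT3 (1.35 ± 0.46) and VLDLR (1.09 ± 0.13). The largest differences the other way were in NUPR1 (−5.12 ± 0.19), DDIT4 (−4.21 ± 0.16), STC2 (−3.79 ± 0.32), CBS (−2.31 ± 0.36) and CHAC1 (−2.10 ± 0.19). The levels of the lines did not overlap in 27 of the 46 genes, against 74.5% of all genes, and these include 22 of the 23 that passed. NUPR1 was at 70.8 to 126 FPKM in C4-2B MDVR and 1.18 to 1.98 in H660, and GDF15 at 47.3 to 148 against 583.6 to 1018. For DDIT3 the ranges overlapped, since the C4-2B MDVR siRNA 2 library (66.0 FPKM) was above the H660 control (41.9 FPKM). The DDIT3 call was lost without either control (adjusted p = 0.208 and 0.209), without the C4-2B MDVR siRNA 1 library (0.101), without either H660 knockdown library (0.0766 and 0.0987) and without the filter on low values (0.0968).

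All 6 enzyme genes of other amino acids were lower in H660 (ALDH18A1, ASNS, CBS, CTH, GPT2 and PYCR1, log2 differences −1.04 to −2.31). Of the serine, glycine and folate genes PSAT1 (−1.73 ± 0.24), PHGDH (−1.24 ± 0.20) and ALDH1L2 (−2.01 ± 0.16) were lower and the other 3 did not pass. Of the transporter genes SLC7A5 (−1.90 ± 0.35), SLC7A1 (−1.60 ± 0.19) and SLC38A2 (−1.02 ± 0.18) were lower and SLC1A4 higher. TRIB3 was lower too (−1.31 ± 0.27). None of the 12 transfer RNA genes passed (median 0.01), the largest being EPRS, the joint glutamyl and prolyl synthetase, at −0.90 ± 0.18, short of 2-fold. EPRS was at 69.9, 62.3 and 97.1 FPKM in C4-2B MDVR and at 37.2, 41.8 and 40.4 in H660. Rescaled to nuclear protein-coding genes, the median difference of all genes moved from −0.004 to 0.21. The genes called were then 2994 higher and 1705 lower in H660, where 3143 and 2803 were called before. In the same rescaled values ALDH18A1 (−0.75), PHGDH (−0.95) and SLC38A2 (−0.73) fell short of 2-fold, while CEBPB (1.04) reached it. ALDH18A1 and TRIB3 also fell short without the C4-2B MDVR siRNA 2 library (−0.97 and −0.999), SLC38A2 without that library (−0.90) or either control (−0.88), and VLDLR without either control (0.96).

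A further 7 related lists, taken as neighbours of the response, put these values beside genes outside the 46. Like the members, these lists were chosen with earlier results of these data known. In the knockdown comparisons 0 genes of these lists passed. For all genes tested the median over both lines was 0.01, and 44.5% to 51.9% of them were above the control in single knockdown libraries. The 16 genes listed as eIF2 kinases, translation factors and their regulators had a median log2 change over both lines of −0.005, and the largest values were GCN1 and EIF2S2. GCN1, the partner of the kinase GCN2, was at 45.6, 29.6 and 36.1 FPKM in C4-2B MDVR and at 20.6, 17.5 and 15.9 in H660. The 12 other genes of cytosolic transfer RNA synthetases and their complex, of which 3 (AIMP1, AIMP2 and EEF1E1) encode its scaffold proteins, are not in the ATF4 list and were at 0.008 over both lines, with 6 of 12 above 0, against 0.27 and 11 of 12 for the members' transfer RNA genes. The 16 measured mitochondrial synthetase genes were at −0.008, the 13 measured other amino acid transporters at −0.007 and the 7 measured other serine and folate enzymes at −0.10.

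The XBP1 and ATF6 arm, the other arms of the unfolded protein response in the endoplasmic reticulum, had a median of 0.16 over both lines with 15 of 15 genes above 0. The median of all genes tested was 0.01 in that fit. Within each line alone 14 of 15 genes of this list were above 0. In C4-2B MDVR its medians were 0.07 with siRNA 1 and 0.54 with siRNA 2, and 0.17 and 0.21 in H660. HERPUD1, a gene of degradation at the endoplasmic reticulum, was at 19.9, 23.7 and 59.9 FPKM in C4-2B MDVR and at 6.77, 9.36 and 10.4 in H660. DNAJB9, a chaperone of the same compartment, was at 8.64, 13.0 and 21.2 FPKM in C4-2B MDVR and at 3.57, 5.26 and 6.13 in H660. The 10 measured NRF2 targets, the antioxidant genes, were at 0.23 over both lines with 10 of 10 above 0. Within the lines 7 of 10 were above 0 in C4-2B MDVR and 8 of 10 in H660. HMOX1, heme oxygenase, which ATF4 and NRF2 are both known to raise, was at 5.13, 14.3 and 30.2 FPKM in C4-2B MDVR and at 7.64, 10.7 and 13.4 in H660. OSGIN1 was at 3.18, 4.18 and 8.27 FPKM in C4-2B MDVR and at 1.87, 2.87 and 2.76 in H660. In C4-2B MDVR the NRF2 list had medians of 0.32 with siRNA 1 and 0.70 with siRNA 2, and in H660 0.26 and 0.23. The median was higher with siRNA 2 than with siRNA 1 in C4-2B MDVR for each of the 7 related lists.

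**Figure D5:**
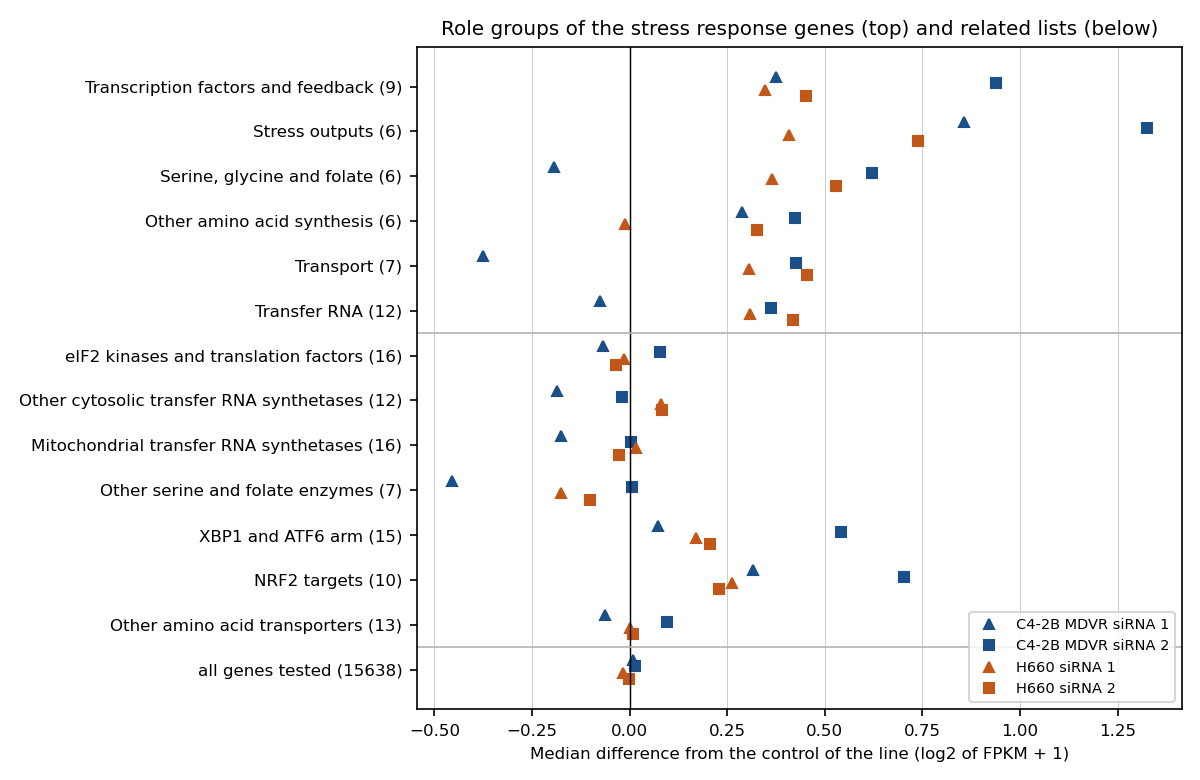
Median difference from the control (log2 of FPKM + 1) for the 6 role groups of the 46 genes, 7 related lists and all genes tested, with the number of genes in brackets and 1 symbol per knockdown library. The stress outputs reach 1.33 in C4-2B MDVR siRNA 2, the transporter genes −0.38 in C4-2B MDVR siRNA 1, and the eIF2 factors and all genes tested lie near 0.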

How the data were processed

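The deposited values are FPKM (fragments scaled by exon length and library size). The authors gave 1 value per library for each of 58735 Ensembl identifiers. Per the submitters' processing notes the tools were HISAT and Cufflinks and the build hg18, with no versions. All identifiers are in GENCODE 29, an annotation of GRCh38, which gave symbols, exon lengths and gene coordinates here, so these may not be those the authors counted on. FPKM multiplied by exon length gave whole fragments, within 0.05, in 100% of the genes of up to 100 fragments checked per library (11224 to 13428 genes). The recovered fragments gave the library totals and the exact binomial 95% intervals, which cover counting error only.

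For the tests, limma 3.58.1 (R 4.3.3) was fitted to log2 of FPKM + 1 (moderated, two-sided, with an intensity trend, Benjamini-Hochberg over 15638 genes, threshold 0.05, and 2-fold between lines). The pseudocount makes fold changes of low genes too small. Effects within a line came from a fit of 4 groups, where each single control is taken to have the spread of the knockdown pairs. Effects over both lines came from an additive fit, and the comparison of siRNAs from a fit of line and siRNA. The script was checked on simulated data. Counts by size used 1.5-fold of FPKM + 1.

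The members, the related lists and the markers were chosen with earlier results of these data known. Values in each library are given for PLXND1, for ATF4, for the members with the largest absolute effects in each role group (3 over both lines and 2 in each line and between lines), for those that passed a test or were under 1 FPKM in a whole line, and for up to 2 genes of a related list. Promoters are those of the 6 members with the largest effects over both lines. IARS, TARS, CDKN1A and the 6 motif matches shown were chosen after their values were seen. Alternatives were a pseudocount of 0.1, no filter, quantile normalization, rescaling to nuclear protein-coding genes, centring on the median, voom on recovered fragments, a replicate block and leaving out libraries. Leaving out controls, voom on nuclear protein-coding fragments, and counts by size with no pseudocount, were added after seeing the data. Some of the marker genes are not reported here.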

Additional observations from a re-analysis of the deposited data

Results flagged for a closer look

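A few genes lay on opposite sides of the control in the lines, with both siRNAs in each. ALDH18A1 and CTH were above it in C4-2B MDVR and below it in H660 (11.9% of all genes tested do this), with H660 effects minus C4-2B MDVR effects of −0.33 and −0.71 on the log2 scale. IARS and TARS were below it in C4-2B MDVR and above it in H660 (7.85% of all genes), with differences of 0.58 and 0.43. These opposite signs were not tested as such, and the difference of the effects passed for none of the 4 genes (limma, adjusted p = 0.985 for each). CTH rests on 256 to 375 fragments in C4-2B MDVR and 76 to 113 in H660. Its H660 siRNA 1 value was within counting error of the control (0.848 times, 0.636 to 1.13), as were the siRNA 2 values of ALDH18A1 in H660 (0.938 times, 0.876 to 1.00) and IARS in C4-2B MDVR (0.997 times, 0.961 to 1.03).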

How the results depend on the processing

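Members called for knockdown or between siRNAs stayed at 0 under all alternatives run. Calls over all genes were 0 as reported. For knockdown in C4-2B MDVR they were 851 with no filter, 6 rescaled to nuclear protein-coding genes, 9 by voom on recovered fragments and 3 by voom on nuclear protein-coding fragments. For H660 they were 876 with no filter and 1 each with a pseudocount of 0.1, quantile normalization and the replicate block. For the difference of the effects they were 1372 with no filter. The cause was not tested.

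At 2-fold the counts were, in C4-2B MDVR, 3 genes with both siRNAs (0.671% of all genes), 3 with siRNA 1 (2.26%), 8 with siRNA 2 (1.63%) and 7 for siRNA 2 over siRNA 1 (1.66%), and in H660 0 with both (0.377%), 0 with siRNA 1 (1.16%) and 1 with siRNA 2 (0.908%), which a stricter fold makes lower by construction. Genes above the control in all 4 knockdown libraries numbered 14 with quantile normalization and 14 rescaled. With no pseudocount, 2 genes were at least 1.5-fold higher with siRNA 2 than siRNA 1 in H660. The median line difference of the 46 genes was −0.12 (quantile) and −0.15 (rescaled) against −0.44. The wider promoter window gave 16 genes with TGATGNAA.

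The siRNAs gave opposite signs in C4-2B MDVR for 19 of 46 genes, so leaving out a library can turn any of these. Against the reported sign, it turned that of CBS in H660 (−0.31 without siRNA 2 to 1.16 without siRNA 1), and in C4-2B MDVR, of the genes named for that effect, of PHGDH (−0.13 without siRNA 2 to 0.58), SLC38A2 (−0.50 to 0.034 without siRNA 1) and XPOT (−1.26 to 0.21 without siRNA 1). The CBS value in H660 also depends on the uncertain split of reads with CBSL. SLC7A11 over both lines went from −0.02 without the H660 control to 0.82 without that of C4-2B MDVR. Between lines, 17 of 23 calls were kept under all alternatives. Calls were gained for ATF3 without the C4-2B MDVR siRNA 2 library (1.00), EPRS without its siRNA 1 library (−1.08), and CEBPB and SHMT2 with quantile normalization (1.13 and 1.00).

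The siRNA numbers name reagents and were not taken to pair the lines. Over 15638 genes the differences between siRNA 2 and siRNA 1 in the lines had r = −0.004, and the replicate block changed no call of a member. With 1 control per line, the spread of the controls is unknown.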
